A study of Mus musculus with 41 samples.

Results

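The effect of the mutant genotype on germinal center (GC) B cells was read from 8 of the 41 RNA-seq libraries of the study. They were chosen by their labels as sorted GC B cells of the spleen, 4 titled wt and 4 titled 1Mek2, and the second group was compared with the first across all genes. The study set wild-type against mutant mice of 3 to 5 months in 6 splenic B cell subsets. The sort took B220+ cells without CD93 or CD138 that stained for GL7 and FAS. Per the labels, wt mice were wild type, and mutant mice had the genotype Mek1flox/flox Mek2+/- Tg+/Vav1-icre. They carried floxed Mek1 alleles, 1 intact Mek2 allele and a Cre transgene driven from Vav1, which is active across blood cells and not in B cells alone. Library names gave 8 animals, 1 library each. The wt replicate 4 came from an animal whose library name reads Mek1ff while its title reads wt, and an Immature library of the same animal is titled 1Mek2. It was kept as wt.

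MEK1 and MEK2, encoded by Map2k1 and Map2k2, are the kinases that phosphorylate and activate ERK downstream of RAS and RAF. In B cells this cascade is engaged by the B cell receptor, by CD40 and by cytokine receptors, and ERK then drives immediate early genes such as Egr1 and feedback phosphatases such as Dusp2. Germinal centers are the sites where B cells divide, mutate their antibody genes in the dark zone and are selected by antigen and T cell help in the light zone, at a high demand for glucose and protein synthesis.

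The targeted genes did not separate the groups as the genotype would have it. Map2k1 (chromosome 9, 64093066 to 64160887, minus strand, overlapping Uchl4) had 208, 291, 205 and 128 CPM (read counts scaled to library size) in wt replicates 1 to 4 and 186, 195, 210.0 and 309.7 in 1Mek2 replicates 1 to 4. The groups overlapped, with a log2 fold change (1Mek2 minus wt) of 0.12 ± 0.33 (SE, n = 4 and 4) and an edgeR adjusted p of 0.882. Map2k2 (chromosome 10, 80941749 to 80960531, plus strand) had 47.2, 67.7, 39.8 and 63.6 CPM in wt and 91.8, 117, 119.7 and 77.5 in 1Mek2. Every library labelled 1Mek2 was above every wt library, and the log2 fold change of 0.89 ± 0.33 (SE, n = 4 and 4) missed the threshold (adjusted p = 0.409). In exon reads the groups overlapped (log2 fold change 0.48). These CPM count reads over the whole gene, so they would not show the loss of single exons, and the labels do not say which part of Mek1 is floxed. The text therefore writes of libraries labelled 1Mek2.

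Total counts per GC library ran from 14819446 to 25326853. The deposited counts cover each gene from start to end with its introns (gene-span counts), and reads on exons alone were recovered from the deposited TPM values (exon reads, 11907158 to 21527560 per library). Both readouts are given, because the share of exon reads per 100 gene-span counts differed among libraries, at 66.1 to 85.8 in wt and 76.6 to 92.7 in libraries labelled 1Mek2 (exact two-sided permutation test, p = 0.143; 4 against 4 libraries cannot give less than 0.0286). Genes of at least 500 kb summed to 27743, 27620, 13029 and 22813 CPM in wt and 14213, 10769, 10307 and 23020 in 1Mek2, so wt replicate 3 and 1Mek2 replicate 4 each lay among the other group. The summed CPM of a list of 24 long genes best known from neurons were 2611, 1047, 344 and 2740.2 in wt and 573, 360.1, 266 and 679.7 in 1Mek2. In exon reads the same sum did not overlap between groups, at 64.6 to 137 CPM in wt and 18.1 to 35.3 in 1Mek2 (exact permutation p = 0.0286, adjusted over 12 lists 0.343). That list holds Dlgap2 and Sox5, and Sox5 alone had 61.2, 39.5, 43.2 and 28.0 exon CPM in wt, a large part of that sum. GC markers were present in all 8 libraries. Bcl6, the repressor that defines the GC state, ran from 235 to 524 CPM in wt and 143 to 336 in 1Mek2. Gcsam, a GC signalling adaptor, ran from 377 to 636 and 300.3 to 1126.

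Of 16681 genes tested, 9 passed the threshold (0.0540%), 3 of them higher in libraries labelled 1Mek2 (0.0180%) and 6 lower (0.0360%). In all, 2017 genes (12.1%) had an unadjusted p below 0.05. The 3 genes that rose encode a stress-response protein, a cytokine receptor chain and the first enzyme of creatine synthesis. Of the 6 that fell, 4 span more than 500 kb, and the other 2 encode ion channels.

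Gadd45g, a growth arrest and DNA damage-inducible protein that binds and activates stress kinase pathways, was the gene with the lowest p (chromosome 13, 52000711 to 52002511, plus strand). It had 12.4, 15.2, 14.9 and 18.3 CPM in wt and 149.5, 79.5, 95.3 and 93.0 in libraries labelled 1Mek2. Every 1Mek2 library was at least 4 times the highest wt library, and the log2 fold change was 2.78 ± 0.36 (SE, n = 4 and 4), adjusted p = 0.00846. In exon reads the values were 19.2, 19.9, 17.1 and 27.9 against 161, 79.0, 92.8 and 100.4 CPM, with a log2 fold change of 2.37 and an adjusted p of 0.0527.

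Lifr, the receptor chain that pairs with gp130 to signal for leukemia inhibitory factor (chromosome 15, 7120091 to 7226970, plus strand), had 8.74, 1.43, 5.58 and 12.2 CPM in wt and 158, 52.1, 42.1 and 239.7 in 1Mek2. The groups did not overlap, and within the 1Mek2 group replicates 1 and 4 stood above replicates 2 and 3. Its log2 fold change was 4.13 ± 0.66 (SE, n = 4 and 4), adjusted p = 0.0423. In exon reads it had 3.01, 0.226, 2.50 and 2.92 CPM in wt against 151, 46.7, 35.5 and 207 in 1Mek2, a log2 fold change of 5.67 (adjusted p = 0.0527). Gatm, which makes guanidinoacetate, the precursor of creatine (chromosome 2, 122424954 to 122441758, minus strand), had 13.7, 26.6, 19.8 and 18.5 CPM in wt and 121, 89.1, 84.9 and 62.0 in 1Mek2, again with no overlap. Its log2 fold change was 2.18 ± 0.37 (SE, n = 4 and 4), adjusted p = 0.0423, and 1.94 in exon reads (adjusted p = 0.164).

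The sequences before the start sites of these 3 genes are shown because they are the genes that rose. They are the 250 bases upstream of a RefSeq start, 5′ to 3′ on the gene's strand, in build GRCm38.p6, whereas the gene positions above are those of the count table in GRCm39. Searched on both strands were the cyclic AMP element TGACGT, the AP-1 site TGANTCA, the E-box CACGTG, the ETS site CCGGAA, which serves factors phosphorylated by ERK, and the hypoxia element core ACGTG, which also lies within the E-box. Capitals mark the matches. Gadd45g is at chr13:51846425-51846674, plus strand, Gatm at chr2:122611278-122611527, minus strand and the first of the 2 Lifr entries at chr15:7129322-7129571, plus strand.
Gadd45g: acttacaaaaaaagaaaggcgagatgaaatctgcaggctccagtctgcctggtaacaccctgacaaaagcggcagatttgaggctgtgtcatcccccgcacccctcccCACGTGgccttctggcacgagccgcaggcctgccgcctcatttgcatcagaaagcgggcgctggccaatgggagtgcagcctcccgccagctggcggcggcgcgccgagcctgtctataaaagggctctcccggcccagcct
Gatm: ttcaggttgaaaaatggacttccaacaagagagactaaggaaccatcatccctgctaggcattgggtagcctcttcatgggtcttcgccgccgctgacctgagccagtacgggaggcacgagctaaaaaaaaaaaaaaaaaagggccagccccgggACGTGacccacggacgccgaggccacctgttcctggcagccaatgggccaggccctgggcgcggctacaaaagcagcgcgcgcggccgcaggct
Lifr: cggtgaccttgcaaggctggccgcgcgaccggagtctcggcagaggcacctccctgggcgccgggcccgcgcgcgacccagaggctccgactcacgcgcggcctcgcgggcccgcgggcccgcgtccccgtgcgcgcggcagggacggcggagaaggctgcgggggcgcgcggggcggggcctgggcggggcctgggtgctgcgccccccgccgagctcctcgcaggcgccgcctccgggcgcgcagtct
The Gadd45g window holds an E-box 142 bases before the start, and 6.02% of all 32851 windows of this length hold one. The Gatm window holds ACGTG once, 94 bases before the start, as do 16.6% of all windows in at least 1 place. Neither Lifr window holds any of the 5 motifs. None of the 3 genes' windows holds a cyclic AMP element (6.47% of all windows), an AP-1 site (6.75%) or an ETS site (12%).

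Trpm5, a calcium-activated cation channel best known from taste cells (chromosome 7, 142625266 to 142648379, minus strand), fell furthest. It had 267, 926, 22 and 153 counts in wt replicates 1 to 4 and 1, 1, 2 and 3 in 1Mek2, or 8.58, 40.0, 1.41 and 7.90 CPM against 0.0558, 0.0494, 0.107 and 0.226. The wt libraries differed widely among themselves, and all 4 were above the 1Mek2 libraries. The log2 fold change was -7.03 ± 1.17 (SE, n = 4 and 4), adjusted p = 0.0423. Most of its wt reads lay on exons (169, 785, 22 and 133 exon reads in wt and 0, 0, 0 and 1 in 1Mek2). Kcnk12, a potassium channel subunit (chromosome 17, 88049100 to 88106329, minus strand), had 14.3, 27.3, 9.56 and 8.52 CPM in wt and 0.335, 0.592, 0.533 and 0.301 in 1Mek2. It did not overlap either, with a log2 fold change of -5.05 ± 0.81 (SE, n = 4 and 4) and an adjusted p of 0.0423. Of its reads, 74, 31, 19 and 40 in wt lay on exons, and 0, 1, 1 and 0 in 1Mek2.

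The other 4 genes that fell are long. Etl4 (900.3 kb, chromosome 2, 19915018 to 20815346, plus strand) had 168, 188, 38.1 and 125 CPM in wt and 23.6, 24.6, 17.5 and 28.0 in 1Mek2. Dlgap2, a postsynaptic scaffold (757.6 kb, chromosome 8, 14145793 to 14903426, plus strand), had 77.8, 79.5, 37.0 and 63.0 in wt and 13.6, 7.45, 4.58 and 12.7 in 1Mek2. Thsd4, a matrix protein (555.2 kb, chromosome 9, 59874214 to 60429394, minus strand), had 61.7, 111, 29.9 and 62.5 in wt and 12.3, 9.67, 5.43 and 13.6 in 1Mek2. In these 3 genes wt replicate 3 was the lowest wt library, and it was also the wt library with the fewest reads on long neuronal genes. Arhgap6, a GTPase-activating protein (509.3 kb, chromosome X, 167578091 to 168087436, plus strand), had 91.5, 117, 54.1 and 51.7 in wt and 8.88, 12.0, 7.83 and 23.4 in 1Mek2. Their log2 fold changes were -2.47, -2.75, -2.69 and -2.59, with edgeR adjusted p-values of 0.0493, 0.0423, 0.0448 and 0.0448. Each overlaps other annotated genes (3 for Dlgap2 and Thsd4, 7 for Etl4, Amelx for Arhgap6), and how reads on overlaps were assigned is not given in the sources used here. Most of their reads lay outside exons: exon CPM in wt were 23.1, 19.6, 12.6 and 8.69 for Arhgap6 and 5.76, 17.8, 11.03 and 5.13 for Dlgap2, against 1.59, 2.28, 2.25 and 0.577 and 2.21, 0.940, 0.209 and 0.494 in 1Mek2. Of 237 tested genes of at least 500 kb, 231 had negative log2 fold changes (median -1.77). Over all tested genes the median was -0.09, and 46.4% were positive. Of the 237 long genes, 7 were lower without overlap (2.95%, against 1.58% of all tested genes). The part of these reads in the 4 calls was not tested beyond a fit with the sum of the 24-gene list as a term, in which none of the 9 genes passed. Dlgap2 is itself part of that sum. The adjusted p ran from 0.153 to 0.306. Log2 fold changes with the term were 2.88 for Gadd45g, 5.01 for Lifr, 2.00 for Gatm, -7.01 for Trpm5 and -5.37 for Kcnk12. For the 4 called long genes they were -1.66 for Etl4, -2.17 for Dlgap2, -2.23 for Thsd4 and -2.35 for Arhgap6. With the term the median of the 237 genes of at least 500 kb turned positive, at 1.21, against 0.21 for all tested genes.

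**Figure D1:**
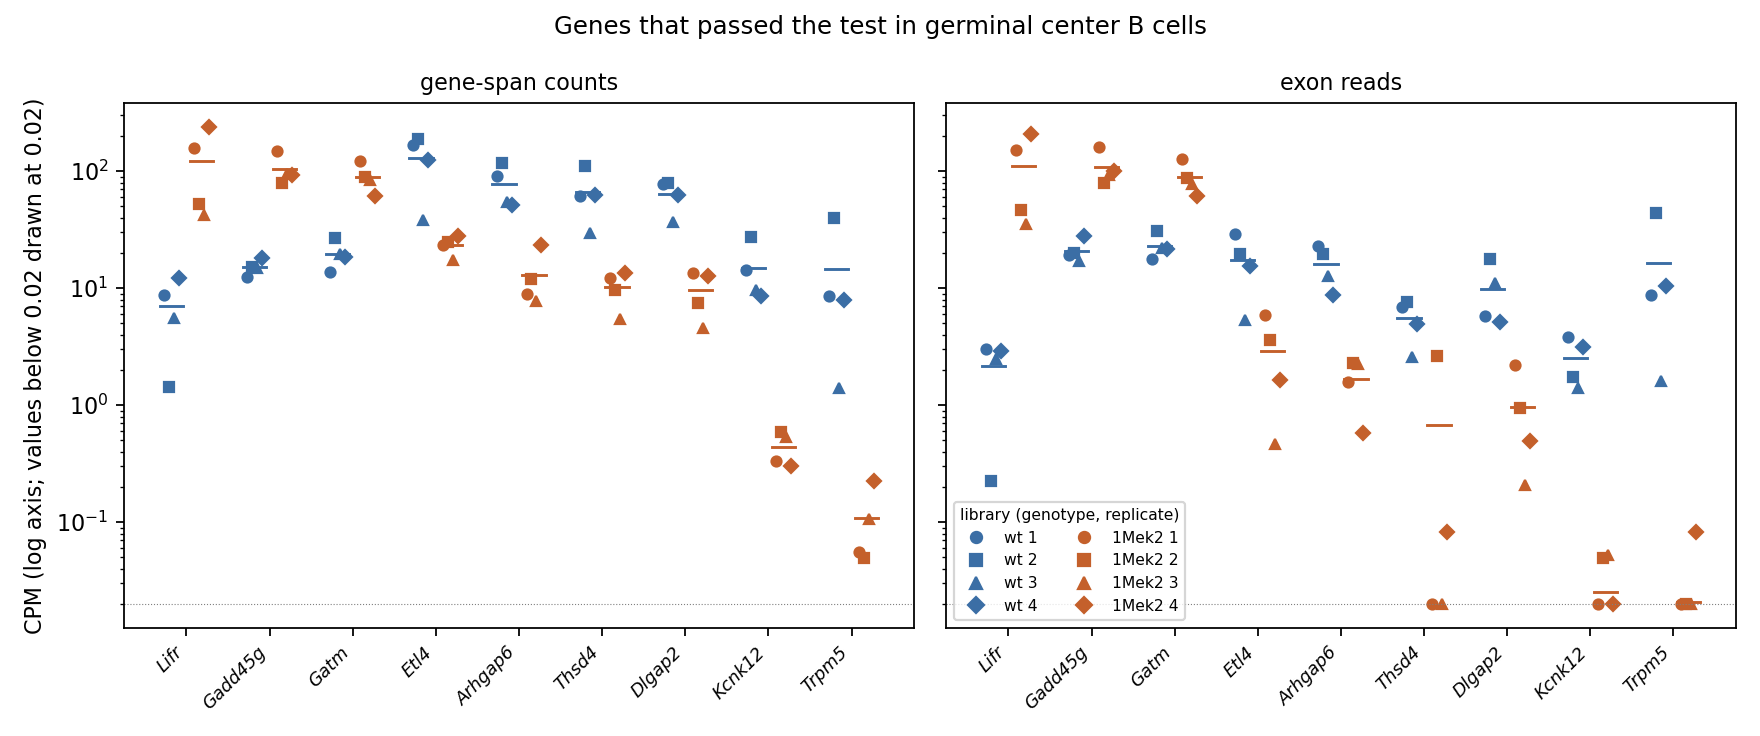
CPM on a log axis of the 9 genes that passed the test, in gene-span counts (left) and exon reads (right), with 1 point per library, shapes for replicates and a short line for the mean of each group of 4. Lifr, Gadd45g and Gatm are higher in all 4 libraries labelled 1Mek2, and the other 6 are lower in gene-span counts, while Etl4 and Thsd4 overlap in exon reads.

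The calls were few and sensitive to single libraries. Without wt replicate 1, or without wt replicate 2, none of the 9 passed, and without 1Mek2 replicate 1 only Dlgap2 did among them. Without wt replicate 4, the animal with conflicting names, Gadd45g, Kcnk12 and Arhgap6 still passed. Exon reads gave 0 calls with edgeR among 13174 genes (0.00%), with 993 genes at an unadjusted p below 0.05. DESeq2, an alternative count test, gave 142 calls on gene-span counts (0.851%, 61 higher and 81 lower) and 112 on exon reads (0.850%), and limma voom gave 0 on either (1708 genes, 10.2%, and 1244 genes, 9.44%, at an unadjusted p below 0.05). In DESeq2 on exon reads, adjusted p was 2.7e-08 for Gadd45g, 1.4e-14 for Lifr, 3.1e-09 for Trpm5 and 3.2e-05 for Gatm. It was 0.0117 for Kcnk12, 0.0117 for Dlgap2 and 0.000123 for Arhgap6. Etl4 (DESeq2 adjusted p = 0.0583) and Thsd4 (0.404) did not pass in that test. The labels name separate animals and no preparation batch, so p-values measure the spread between animals and their libraries together.

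Below the threshold, the next genes by p that were higher without overlap in both readouts were Arid5a, Serpina3g, Tmem123, Pdk1, Gm5547, Rgs1, Tollip and Plscr1 (adjusted p from 0.0766 to 0.194). No overlap in the higher direction was found for 4.66% of tested genes in gene-span counts and 2.75% in exon reads. Arid5a, an RNA-binding protein that stabilizes cytokine transcripts, had 45.6, 39.3, 22.6 and 31.6 CPM in wt and 152, 94.2, 101 and 162 in 1Mek2. Serpina3g, a serine protease inhibitor of activated lymphocytes, had 8.71, 9.25, 40.6 and 18.7 in wt and 155, 102, 110.4 and 78.8 in 1Mek2. Tmem123, a mucin-like surface protein, had 338, 479, 632 and 278 in wt and 1436, 1201, 1180.0 and 1615 in 1Mek2. Their log2 fold changes were 1.87, 2.53 and 1.65.

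Pdk1, a kinase that inhibits pyruvate dehydrogenase, had 16.9, 4.45, 9.11 and 8.52 CPM in wt and 35.8, 50.3, 56.7 and 50.4 in 1Mek2 (log2 fold change 2.31). Rgs1, which damps chemokine receptor signalling, had 3.76, 2.38, 1.41 and 1.55 in wt and 22.2, 29.0, 10.3 and 18.7 in 1Mek2 (log2 fold change 3.13), so it was barely present in wt. Tollip, an adaptor of Toll-like receptor signalling, ran from 18.9 to 37.0 CPM in wt and 60.7 to 101 in 1Mek2. Plscr1, a phospholipid scramblase, ran from 3.41 to 13.4 and 26.1 to 49.1, and the predicted gene Gm5547 from 2.12 to 5.84 and 22.0 to 34.5.

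The next genes in the lower direction were Slc15a2, Myo6, Cask, 4930593A02Rik, Cep290, Sox5 and Mgll (adjusted p from 0.0642 to 0.312), where 1.58% of tested genes were lower without overlap in gene-span counts and 3.04% in exon reads. Slc15a2, a transporter of small peptides, had 131, 187, 42.3 and 12.9 CPM in wt and 11.3, 7.26, 3.30 and 8.43 in 1Mek2. Here wt replicate 4 lay close to the 1Mek2 libraries, and the log2 fold change was -3.62. Myo6, an unconventional myosin, had 66.3, 51.6, 17.8 and 18.6 in wt and 3.57, 9.77, 6.55 and 6.78 in 1Mek2, with many of its reads on exons (58.2, 35.2, 17.5 and 9.003 exon CPM in wt and 0.736, 5.44, 2.41 and 5.44 in 1Mek2). Cep290, a ciliary protein, had 36.6, 67.7, 26.4 and 21.2 in wt and 10.8, 7.601, 7.30 and 1.58 in 1Mek2, and Mgll, which breaks down monoacylglycerols, had 13.1, 65.1, 12.1 and 24.7 in wt and 7.54, 4.49, 6.02 and 3.54 in 1Mek2. Cask and Sox5 span 329.7 and 953.9 kb, and log2 fold changes were -2.10 for Cask, -1.69 for Sox5 and -2.30 for 4930593A02Rik.

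Genes of the cascade itself had values in both directions. Of 23 tested members of the RAS to ERK list, none was called, and 14 of 23 had positive log2 fold changes (median 0.15, and -0.02 in exon reads, against -0.09 and -0.06 over all tested genes). Besides Map2k2, Lamtor3, the scaffold that brings MEK1 to endosomes, ran from 24.7 to 61.2 CPM in wt and 63.6 to 91.4 in 1Mek2. Rps6ka1, an ERK-activated kinase, ran from 34.9 to 64.1 and 69.8 to 99.3. Both groups were separate for these genes in gene-span counts, and in exon reads only for Lamtor3 of the pair. Pebp1, an inhibitor of RAF, ran from 34.9 to 52.1 and 34.2 to 103.

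Targets and feedback inhibitors of ERK had the lowest median of the 23 gene lists in gene-span counts, -0.57, with -0.39 in exon reads. None of 21 tested members was called, 9 of 21 were positive in gene-span counts and 4 of 19 in exon reads, against 46.4% and 46.0% of all tested genes. Egr1, the immediate early transcription factor, had 100.4, 64.6, 95.2 and 44.9 CPM in wt and 28.4, 9.28, 20.98 and 61.2 in 1Mek2, and 162, 83.6, 109 and 68.6 against 31.1, 9.30, 20.6 and 67.1 in exon reads. The groups overlapped in gene-span counts through 1Mek2 replicate 4 and were just apart in exon reads. Its log2 fold change was -1.35 ± 0.48 (SE, n = 4 and 4), adjusted p = 0.409. Dusp2, a nuclear phosphatase that inactivates ERK, had 21.2, 35.8, 64.4 and 99.6 CPM in wt and 13.3, 29.1, 44.6 and 30.7 in 1Mek2 (log2 fold change -0.91). Jun, a partner in AP-1, went the other way in value through 1Mek2 replicates 1 and 4, with 11.9, 17.4, 10.3 and 2.63 CPM in wt and 49.8, 12.4, 9.05 and 64.7 in 1Mek2 (log2 fold change 1.69). Egr1 and Jun also belong to a list of 12 dissociation stress genes, whose sum ran from 256 to 494 CPM in wt and 483 to 623 in 1Mek2 (exact permutation p = 0.0571, adjusted 0.274). In exon reads the sum ran from 511 to 832 and 628 to 793 CPM (p = 0.657), and without TMM the gene-span p was 0.343 (both exact permutation tests). Its part in these values was not tested.

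GC identity genes had values in both directions, with more of them negative in exon reads. Of 18 tested identity genes, 9 were positive (median 0.05), but in exon reads 6 of 19 (median -0.35), and none was called. Mybl1, a transcription factor of centroblasts, had 383, 664, 504 and 233 CPM in wt and 248, 247, 163 and 85.1 in 1Mek2, and Rgs13, which damps chemokine signals in GC cells, 638, 607, 1034 and 348 in wt and 242, 408, 439 and 228 in 1Mek2. Both were lower without overlap in exon reads. Log2 fold changes were -1.26 for Mybl1, -0.996 for Rgs13, -1.09 for Basp1 and -1.12 for Bach2, the repressor that holds back plasma cell fate. Bcl6 had 379.9, 524, 390.4 and 235 CPM in wt and 336, 209, 143 and 248 in 1Mek2 (log2 fold change -0.71, adjusted p = 0.415). Gcsam had 441, 377, 636 and 479 in wt and 897, 1087, 1126 and 300.3 in 1Mek2, above all wt libraries in 3 of 4. S1pr2, which confines cells to the follicle, and Fas, used in the sort, ran from 145 to 255 and 189.9 to 385 CPM in wt and 147 to 350.3 and 251 to 398 in 1Mek2, with overlap in both.

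Replicate 4 of the libraries labelled 1Mek2 differed from the other 3 in genes of division. The summed exon CPM of the 25 cell cycle genes were 8050.4, 5527, 6581 and 6768 in wt and 8739, 10162, 9957 and 2675 in 1Mek2. Replicates 1 to 3 labelled 1Mek2 were above every wt library and replicate 4 was below all of them. The list had positive log2 fold changes for 23 of 25 genes (median 0.81, 0.40 in exon reads), and without that replicate the medians were 1.04 and 0.63, where the median of all tested genes in gene-span counts was -0.29. No member was called. Ccnb1, the mitotic cyclin, had 73.5, 37.0, 109.9 and 67.7 CPM in wt and 149, 275, 263 and 18.2 in 1Mek2. Plk1, Aurka, Ccne1 and Rrm1, which act in mitosis, in S-phase entry and in nucleotide supply, had log2 fold changes of 1.09, 1.005, 1.18 and 1.02, with replicate 4 again the lowest of all 8 libraries. The D-type cyclin Ccnd2 had 84.9, 143, 80.8 and 79.9 CPM in wt and 169, 132, 103 and 413 in 1Mek2. Ccnd3, the D-type cyclin of dark zone expansion, had 289.7, 356, 243 and 182 CPM in wt and 357, 341, 417 and 814 in 1Mek2 in gene-span counts, highest in replicate 4, but 140.5, 141, 148 and 160.1 in wt and 305, 295, 371 and 84.5 in 1Mek2 in exon reads, lowest there. Mki67, a marker of cycling cells, had 735, 867, 737 and 608 CPM in wt and 726, 828, 698 and 225 in 1Mek2, and was lower without overlap in exon reads (813 to 1142 against 239 to 809.7).

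The dark zone list, which shares mitotic genes with the cell cycle list, had a median of 0.57 (0.22 in exon reads) with 11 of 14 members positive. The light zone list had a median of 0.17 (-0.02 in exon reads), 13 of 19 positive and none called. Batf, a transcription factor needed for class switching, ran from 33.3 to 72.1 CPM in wt and 87.7 to 116 in 1Mek2, without overlap in gene-span counts only. Cd83, a light zone surface marker, had 1291, 1311, 2024 and 795 CPM in wt and 2573, 2136, 2383 and 1761 in 1Mek2 (log2 fold change 0.71). Myc, which marks positively selected cells, had 75.2, 107, 75.5 and 58.7 in wt and 198, 162, 146 and 53.3 in 1Mek2, with 1Mek2 replicate 4 below every wt library. In the list of Myc-driven nucleolar growth genes 18 of 20 were positive (median 0.52, 0.14 in exon reads). Its members Rrp9, Hspd1 and Srm, which act in ribosomal RNA processing, mitochondrial protein folding and spermidine synthesis, had log2 fold changes of 1.05, 0.75 and 1.04.

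**Figure D2:**
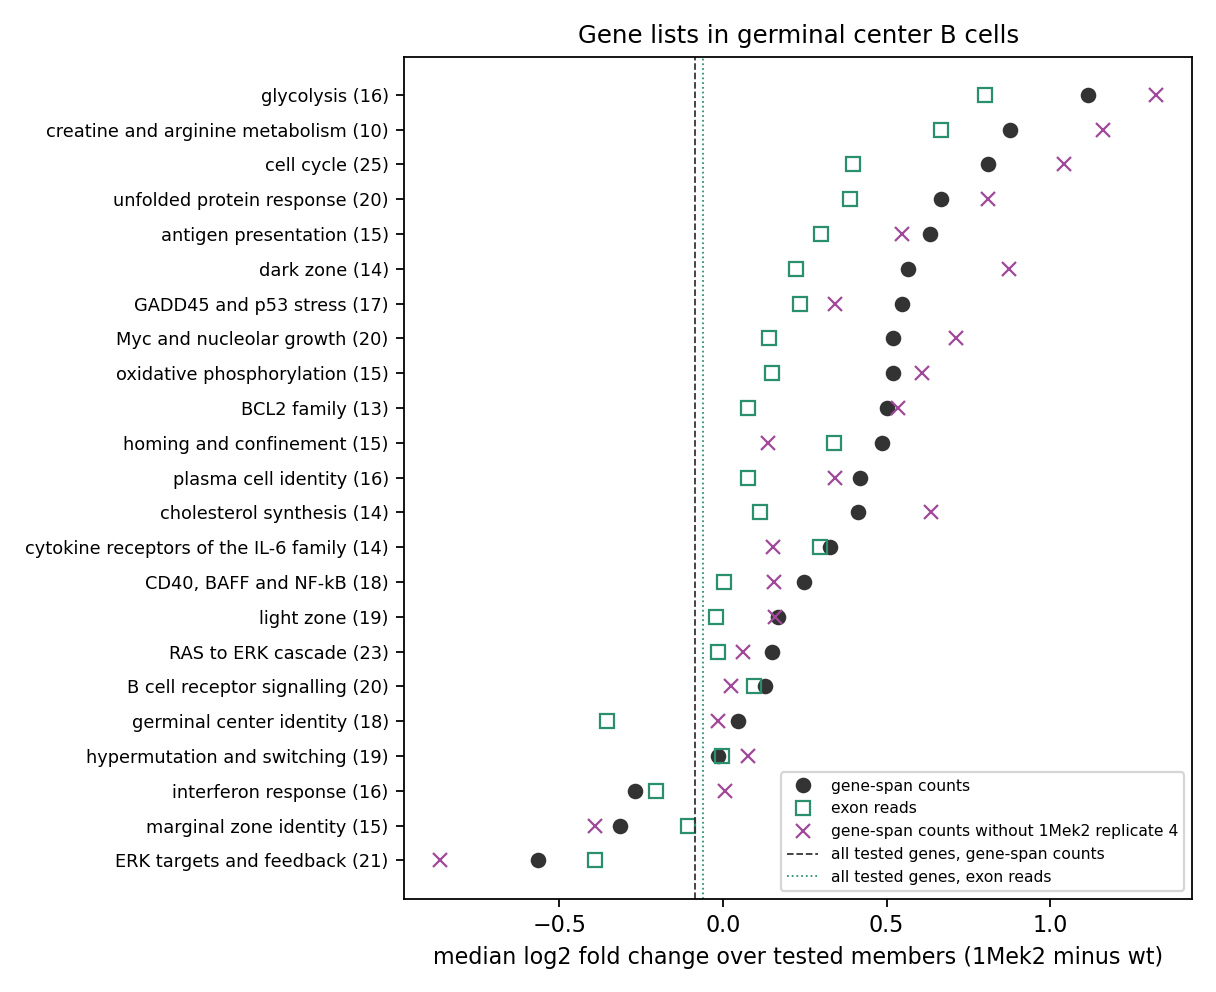
Median log2 fold change (1Mek2 minus wt) over the tested members of 23 gene lists, with the number tested in gene-span counts in brackets, for gene-span counts, exon reads and gene-span counts without 1Mek2 replicate 4. Vertical lines mark the medians of all tested genes (-0.09 and -0.06). Glycolysis is highest in all 3 series, and exon reads are nearer to 0 than gene-span counts for most lists.

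Glycolysis had the highest median of the 23 lists, 1.12 in gene-span counts and 0.80 in exon reads. Positive were 15 of 16 and 16 of 17 members, against 46.4% and 46.0% of all tested genes. None was called by edgeR, and DESeq2 called 2 of 16 (Pkm and Eno1, against 0.851% of all genes). Slc2a1, the glucose transporter, Gpi1, Eno1 and Pkm were higher without overlap in gene-span counts (4 of 16, against 4.66% of all tested genes). In exon reads Slc2a1 and Gpi1 were (2 of 17, against 2.75% of all tested genes). The summed exon CPM of the list were 2667, 2567, 2680.4 and 2679.7 in wt. In libraries labelled 1Mek2 they were 5085, 5464, 5646 and 2378. The 4 wt libraries were thus nearly equal, replicates 1 to 3 labelled 1Mek2 were all above every wt library, and replicate 4 was below all wt libraries. Without it the medians were 1.32 and 0.98. With the sum of the 24 long genes as a term the median was 0.80, against 0.21 for all tested genes, and creatine and arginine metabolism was higher at 1.499. Without wt replicates 1 and 4 it was higher too, at 1.35 against 0.86 for glycolysis. The term also took the medians of the germinal center identity (-0.06), light zone (-0.15), CD40, BAFF and NF-kB (-0.07), BCL2 family (-0.05) and RAS to ERK (-0.02) lists below 0.

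Pkm, pyruvate kinase, had 479.6, 540.2, 533 and 321 CPM in wt and 1452, 1567, 1642 and 655 in 1Mek2, a log2 fold change of 1.505 ± 0.34 (SE, n = 4 and 4) with an adjusted p of 0.195 in edgeR and 0.0236 in DESeq2. Eno1, enolase, had 294, 340.4, 403 and 249 in wt and 884, 997, 1093 and 424 in 1Mek2 (1.401, adjusted p = 0.259 in edgeR and 0.0449 in DESeq2). Pfkl, a phosphofructokinase, had 106, 46.1, 101 and 26.2 in wt and 299, 244, 292 and 93.1 in 1Mek2, and Pgk1, phosphoglycerate kinase, had 61.1, 57.5, 124 and 85.5 in wt and 204, 269, 247 and 82.5 in 1Mek2. For Pfkl and Pgk1 replicate 4 labelled 1Mek2 lay within the wt range, which made the groups overlap. In exon reads the log2 fold changes were 1.11 for Pkm, 0.99 for Eno1, 1.35 for Pfkl and 0.89 for Pgk1.

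Because the list had the highest median, its promoter windows were searched in the same way. Of 16 glycolysis genes with an entry, 9 held the hypoxia element core ACGTG in at least 1 window (10 of 23 windows, against 16.6% of all windows, where windows of 1 gene can overlap). An E-box stood in 2 of the 23 windows (Ldha and Slc16a1), the cyclic AMP element in 3, the ETS site in 3 and the AP-1 site in 1. The windows of Pgk1 (chrX:106186850-106187099, plus strand) and of the second Pkm entry (chr9:59656977-59657226, plus strand) are shown as the 2 windows that hold ACGTG among the 4 glycolysis genes with the lowest p. The first Pkm window, the 3 Eno1 windows and the Pfkl window hold none. Capitals mark ACGTG or, on the other strand, CACGT.
Pgk1: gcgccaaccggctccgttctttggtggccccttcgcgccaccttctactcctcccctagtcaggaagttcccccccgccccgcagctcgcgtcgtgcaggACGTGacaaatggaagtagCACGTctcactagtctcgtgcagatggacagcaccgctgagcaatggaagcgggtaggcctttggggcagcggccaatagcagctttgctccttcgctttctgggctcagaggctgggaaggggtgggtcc
Pkm: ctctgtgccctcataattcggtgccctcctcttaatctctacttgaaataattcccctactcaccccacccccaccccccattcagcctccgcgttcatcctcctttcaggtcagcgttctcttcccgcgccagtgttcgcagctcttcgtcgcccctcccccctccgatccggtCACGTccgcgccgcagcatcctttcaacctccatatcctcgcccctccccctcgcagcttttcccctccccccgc
Pgk1 holds 2 matches, 150 and 131 bases before the start, and Pkm 1, at 75 bases.

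Other metabolic lists were also above the median of all genes in gene-span counts. In creatine and arginine metabolism 8 of 10 were positive (median 0.88, 0.67 in exon reads), with Gatm the 1 call of 10 (0.0540% of all genes). The list was chosen with earlier results of these data known, so this share of calls is no test. Ass1 and Asl, the enzymes that remake arginine from citrulline, were higher without overlap in gene-span counts. With Gatm these were 3 of 10 members, against 4.66% of all tested genes. Ass1 had 4.47, 8.99, 7.83 and 15.2 CPM in wt and 37.1, 22.6, 35.04 and 21.8 in 1Mek2, and Asl 35.7, 31.2, 27.1 and 24.8 in wt and 66.3, 62.8, 50.4 and 69.2 in 1Mek2, with adjusted p-values in edgeR of 0.396 and 0.409. All 15 tested nuclear genes of oxidative phosphorylation were positive in gene-span counts (median 0.52) and 10 of 15 in exon reads (median 0.15), against a background of 46.4% and 46.0%. Ndufv1, a complex I subunit, ran from 82.5 to 120.3 CPM in wt and 146 to 237 in 1Mek2 and was separate in both readouts. Sdha and Uqcrc1 of complexes II and III had log2 fold changes of 0.64 and 0.78. Cholesterol synthesis had a median of 0.41 (0.11 in exon reads). With the long-gene term the medians were 0.14 for oxidative phosphorylation and 0.03 for cholesterol synthesis. Both were below the 0.21 of all tested genes, while creatine and arginine metabolism stayed above it. Idi1, an enzyme of isoprenoid synthesis, had 9.64, 10.7, 9.88 and 6.87 CPM in wt and 27.1, 37.7, 31.3 and 1.88 in 1Mek2. Fdps, the next enzyme of that branch, had 34.3, 80.3, 84.5 and 66.9 in wt and 151, 153, 154 and 32.7 in 1Mek2. In both, replicate 4 labelled 1Mek2 was far below the other 3. Srebf2, the regulator of the pathway, and Fdft1, squalene synthase, had log2 fold changes of -0.66 and 0.78.

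**Figure D3:**
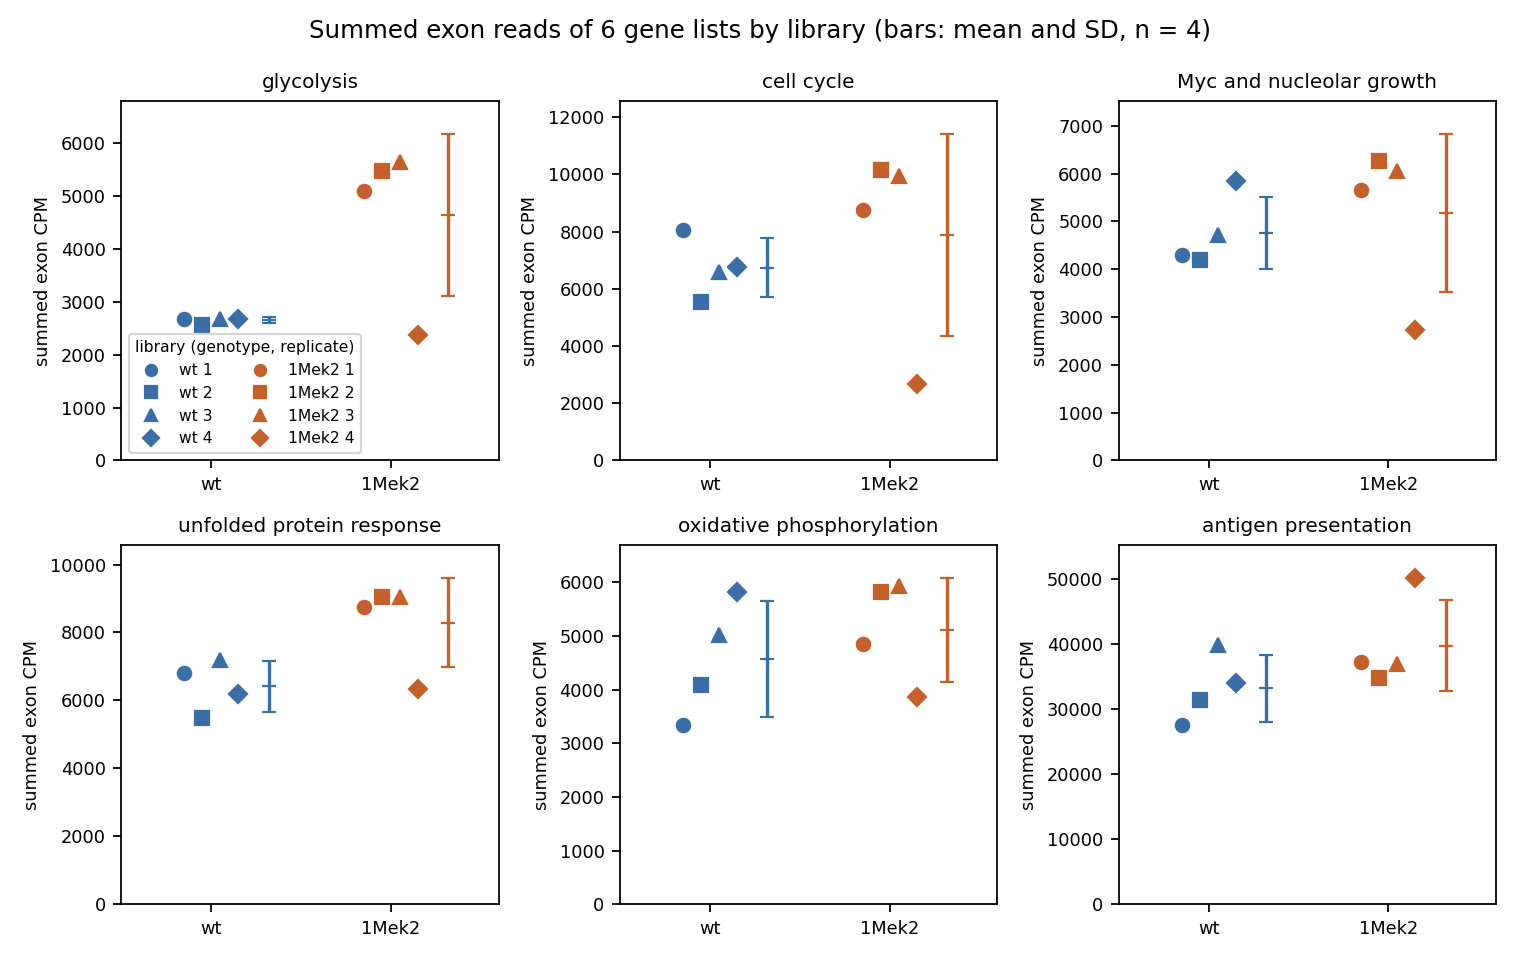
Summed exon CPM of 6 gene lists in each of the 8 libraries, with shapes for replicates and the mean ± SD of each group of 4 at the side. In glycolysis the wt libraries lie between 2567 and 2680.4. Replicate 4 labelled 1Mek2 is the lowest of all 8 libraries in glycolysis, cell cycle and Myc-driven growth and the highest in antigen presentation.

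Genes of protein folding in the endoplasmic reticulum had mostly positive log2 fold changes. In the unfolded protein response list 19 of 20 were positive (median 0.67) and 16 of 20 in exon reads (median 0.39), with none called. Xbp1, the transcription factor that expands the secretory machinery, had 294, 396, 337 and 173 CPM in wt and 822, 773, 838 and 486 in 1Mek2. The groups did not overlap in either readout, and the log2 fold change was 1.28 ± 0.33 (SE, n = 4 and 4), adjusted p = 0.312. Pdia4, a disulfide isomerase, had 60.5, 61.1, 109 and 43.2 in wt and 158, 116, 137 and 203 in 1Mek2, also without overlap in either. Dnajc3, a co-chaperone, had 76.5, 65.8, 69.6 and 69.1 in wt and 143, 122, 150.0 and 159 in 1Mek2, without overlap in gene-span counts. Pdia3 and Creld2 had log2 fold changes of 0.93 and 0.66. Antigen presentation was positive for 15 of 15 members (median 0.63) and 16 of 17 in exon reads (median 0.30). Its median was 0.35 with the long-gene term and 0.25 without wt replicates 1 and 4. The class II genes H2-DMa, H2-DMb2 and H2-Eb1 and the class I genes H2-D1 and H2-K1 were higher without overlap in gene-span counts (5 of 15, against 4.66% of all genes), and H2-DMa and H2-D1 in exon reads. H2-DMa, which loads peptides on class II, had 361, 488.6, 672 and 439 CPM in wt and 751, 861, 920.1 and 1131 in 1Mek2, and H2-D1 822, 1292, 1489 and 654 in wt and 1793, 2001, 2463 and 1754 in 1Mek2. Log2 fold changes were 0.90, 0.91, 0.78 for H2-Eb1 and 0.77 for H2-DMb2, with adjusted p of 0.409 in each. Class I genes are near-identical copies, and reads may be split between them.

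Constant genes of the antibody heavy chain are listed at 0 in the gene-span counts, other than Igha, and were read from exons. Exon reads count every transcript of a constant gene, switched or not, so they do not show how many cells had switched to that isotype. IgG1 and IgE are the isotypes to which interleukin-4 directs switching. Ighg1 had 1029.7, 665, 756 and 539 exon CPM in wt and 2294, 1549.7, 1771 and 3399 in libraries labelled 1Mek2. All 4 were above every wt library, with a log2 fold change of 1.59 ± 0.30 (SE, n = 4 and 4), an adjusted p of 0.186 in edgeR and 0.000992 in DESeq2. Ighe had 14.6, 7.63, 17.2 and 48.1 in wt and 168, 115, 126 and 219.7 in 1Mek2, again apart, with a log2 fold change of 2.85 ± 0.51 (SE, n = 4 and 4) and adjusted p-values of 0.179 in edgeR and 1.2e-05 in DESeq2. Ighg3 lay the other way, at 237, 160.1, 154 and 334 in wt and 99.3, 144, 107 and 99.8 in 1Mek2 (log2 fold change -0.98, adjusted p = 0.497 in edgeR and 0.139 in DESeq2). The ranges of Ighm, Ighd, Ighg2b and Ighg2c overlapped, with log2 fold changes of -0.0047, 0.29, 0.01 and -0.36. Igha had 52.7, 122, 114 and 0 in wt and 25.3, 23.7, 8.10 and 18.5 in 1Mek2. The share of all immunoglobulin genes in exon reads was 1.27% ± 0.13 (SD, n = 4) in wt and 1.72% ± 0.58 in 1Mek2 (exact permutation p = 0.0857). None of these constant genes passed the edgeR test, and reads of similar constant genes may be split between them.

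**Figure D4:**
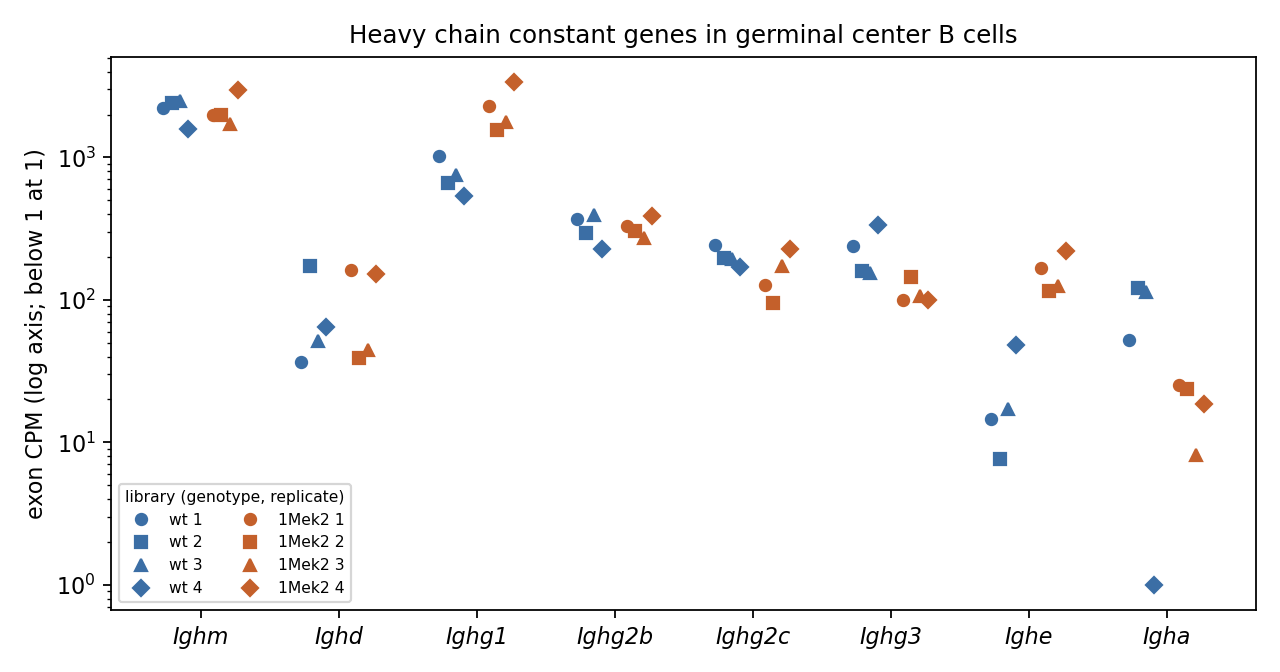
Exon CPM on a log axis of 8 heavy chain constant genes, with 1 point per library and shapes for replicates. Ighg1 and Ighe are higher in all 4 libraries labelled 1Mek2 and Ighg3 is lower in all 4, while Ighm overlaps.

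Plasma cell genes had values in both directions. In that list 13 of 16 were positive (median 0.42, 0.08 in exon reads), with Xbp1 counted above. Prdm1, the repressor that drives plasma cell fate, had 21.6, 23.3, 8.41 and 26.7 CPM in wt and 5.30, 6.32, 3.20 and 13.9 in 1Mek2, and in exon reads it was lower without overlap (13.6, 24.1, 7.43 and 28.4 against 3.19, 4.65, 2.56 and 4.29). Its log2 fold change was -1.48 ± 0.61 (SE, n = 4 and 4), adjusted p = 0.409, and in exon reads -2.32 with 0.453. Jchain, which joins IgM and IgA units, had 827, 860.4, 1596 and 994 CPM in wt and 1384, 2277, 2171 and 1406 in 1Mek2. Genes of hypermutation and switching had a median of -0.01 (-0.0036 in exon reads). The repair enzymes Apex1, Ung, Exo1 and Xrcc6 had log2 fold changes of 0.94, 0.97, 1.13 and 0.55, with none called, and Exo1 ran from 28.5 to 53.3 CPM in wt and 10.3 to 116 in 1Mek2.

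Of the receptor pathways upstream of the cascade, B cell receptor signalling had a median of 0.13 (0.09 in exon reads). The CD40, BAFF and NF-kB list had 0.25 (0.00 in exon reads). Over all tested genes the medians were -0.09 and -0.06, and neither list held a call. Bcl10, Vav1, Cd72 and Pik3ap1 of the receptor pathway had log2 fold changes of 0.61, 0.51, 0.60 and -0.65. Rela, the main NF-kB activator, was higher without overlap in both readouts, with 20.3, 49.4, 32.6 and 49.0 CPM in wt and 87.1, 89.6, 90.3 and 74.5 in 1Mek2 (log2 fold change 1.17, adjusted p = 0.396). The kinase Ikbkb and the inhibitor Nfkbia were higher without overlap in gene-span counts only, with log2 fold changes of 0.90 and 0.51, and Rel had -0.51. With Rela, 3 of 18 members were higher without overlap in gene-span counts, against 4.66% of all tested genes. The IL-6 cytokine family list was chosen with earlier results of these data known, so its share of calls is no test. In it Lifr was the 1 call of 14 (0.0540% of all genes, median 0.33). Stat3, which transmits its signal, had 332, 334, 249 and 131 CPM in wt and 517, 344, 355 and 461 in 1Mek2, without overlap in gene-span counts and with overlap in exon reads, and Jak2 had a log2 fold change of -0.71.

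In the list of GADD45 and p53 stress genes, Gadd45g was the 1 call of 17 (0.0540% of all genes). Positive were 15 of 17 (46.4% of all genes, median 0.55, 0.24 in exon reads). This list too was chosen with earlier results of these data known, so its share of calls is no test. Mdm2, the p53 ubiquitin ligase and target, had 121, 101, 80.1 and 77.5 CPM in wt and 161, 204, 158 and 139 in 1Mek2, without overlap in gene-span counts. Ccng1, another p53 target, had 79.3, 81.9, 133 and 82.7 in wt and 180.3, 181, 141 and 133 in 1Mek2. Ddit4, an inhibitor of mTORC1, had 15.9, 21.2, 46.5 and 9.97 in wt and 26.7, 25.9, 27.2 and 137 in 1Mek2, so its log2 fold change of 1.21 rested on replicate 4 labelled 1Mek2, without which it was 0.13 (-0.13 in exon reads). In the BCL2 family 9 of 13 were positive (median 0.50, 0.08 in exon reads). The death genes Pmaip1, Bcl2l11 and Bax had log2 fold changes of 1.21, 0.65 and 0.54, and the survival gene Bcl2l2 -2.37 at under 10 CPM in every library. None of these 4 was called.

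Marginal zone genes had a median of -0.32 (-0.11 in exon reads), with 1 of 15 members called by DESeq2 (0.851% of all genes). That gene was Cr2, the complement receptor CD21, with 302, 438, 349 and 81.5 CPM in wt and 74.7, 62.2, 80.7 and 89.8 in 1Mek2. In gene-span counts replicates 1 to 3 of wt were above 300 CPM, and wt replicate 4 lay within the 1Mek2 range. In exon reads the groups did not overlap, with Cr2 lower in every library labelled 1Mek2. Its log2 fold change was -1.93 ± 0.42 (SE, n = 4 and 4), with an adjusted p of 0.184 in edgeR and 0.00482 in DESeq2, and -2.15 in exon reads (0.179 in edgeR and 0.000120 in DESeq2). Tm6sf1, Cd9 and Asb2 had log2 fold changes of -0.86, -0.95 and -1.23. Among homing genes (median 0.49, 0.14 without replicate 4 labelled 1Mek2), Ccr6 had 31.6, 64.0, 55.0 and 17.7 CPM in wt and 77.0, 29.8, 16.8 and 422 in 1Mek2. The chemokine receptor Ccr7 had 6.72, 29.8, 22.7 and 8.99 CPM in wt and 38.4, 23.1, 16.9 and 89.7 in 1Mek2. Both were highest in replicate 4 labelled 1Mek2. The integrin Itga4 had a log2 fold change of -1.06. Interferon response genes had a median of -0.27 (-0.20 in exon reads). Bst2, a surface tether of viruses, ran from 3.61 to 8.73 CPM in wt and 10.4 to 26.0 in 1Mek2, and Oasl1 from 0.648 to 4.68 and 0.112 to 0.592, both apart in gene-span counts, while Ifi44 had under 5 CPM throughout.

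Markers of other cells the gate could hold overlapped between the groups in their sums. T cell genes (4 of 9 tested positive, with Trac, Trbc1 and Trbc2 at 0 in the gene-span counts of all 8 libraries) summed to 15.8 to 85.5 CPM in wt and 34.6 to 62.6 in 1Mek2, and macrophage genes to 60.6 to 120.4 and 42.2 to 149.6. Erythroid genes summed to 21.8, 166, 37.2 and 69.2 CPM in wt and 11.6, 40.8, 5.75 and 8.36 in 1Mek2 (exact permutation p = 0.0857, adjusted 0.274), with all 7 tested members lower in value in 1Mek2 and Alas2 at 0 in all 8 libraries. Neutrophil genes summed to 0.257 to 29.7 and 0.592 to 106. Dendritic cell genes summed to 66.0 to 130 CPM in wt and 106 to 158 in 1Mek2 (exact permutation p = 0.114, adjusted 0.274). Some single markers separated the groups. Thy1 of the T cell list was higher without overlap in both readouts. Itgax and Bst2, 2 of 5 tested dendritic genes, were higher in gene-span counts (4.66% of all tested genes). Hba-a2 of the erythroid list was lower without overlap in exon reads. Fewer cells of a type and less RNA per cell cannot be told apart in bulk libraries, and the part of these cells in the gene values above was not tested.

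The 3 genes that rose in GC were read in the other subsets of the study. The Immature library of the animal with conflicting names, titled 1Mek2, was left out. That gave 3 wt and 3 1Mek2 libraries in each subset, and 4 and 4 in Follicular cells. Groups of 3 separate more easily by chance than groups of 4, and the share of all genes without overlap was not computed in these subsets. Gadd45g was also higher without overlap in libraries labelled 1Mek2 in Immature (28.7 to 58.6 CPM in wt and 85.7 to 181 in 1Mek2), Follicular (126 to 224 and 419 to 782), ABC (age-associated B cells, 0 to 1.01 and 23.7 to 248) and Plasma (7.67 to 30.6 and 111 to 172) libraries. It passed the edgeR threshold in Immature cells (log2 fold change 1.58, adjusted p = 0.0311), where 0.933% of tested genes did. In MarginalZone the groups overlapped, with 1 library labelled 1Mek2 at 0.418 CPM. Lifr was higher in Immature cells (48.7 to 115 and 173 to 436 CPM, log2 fold change 1.84, adjusted p = 0.00356) and lower without overlap in ABC (654 to 1706 and 206 to 334 CPM, log2 fold change -2.14, adjusted p = 0.161). Gatm was higher in Immature cells (3.92 to 8.82 and 59.8 to 87.6 CPM, log2 fold change 3.48, adjusted p = 7.0e-06) and overlapped in Follicular, MarginalZone and Plasma cells. Exon reads in ABC ran from 7897848 to 10194627 in wt and from 15830023 to 25525294 in 1Mek2. Total counts there were 19157012 to 22735395 and 21763237 to 28461762. The part of this difference in the ABC values was not tested. Some animals gave libraries of several subsets, so the values in other subsets are not independent of those in GC.

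**Figure D5:**
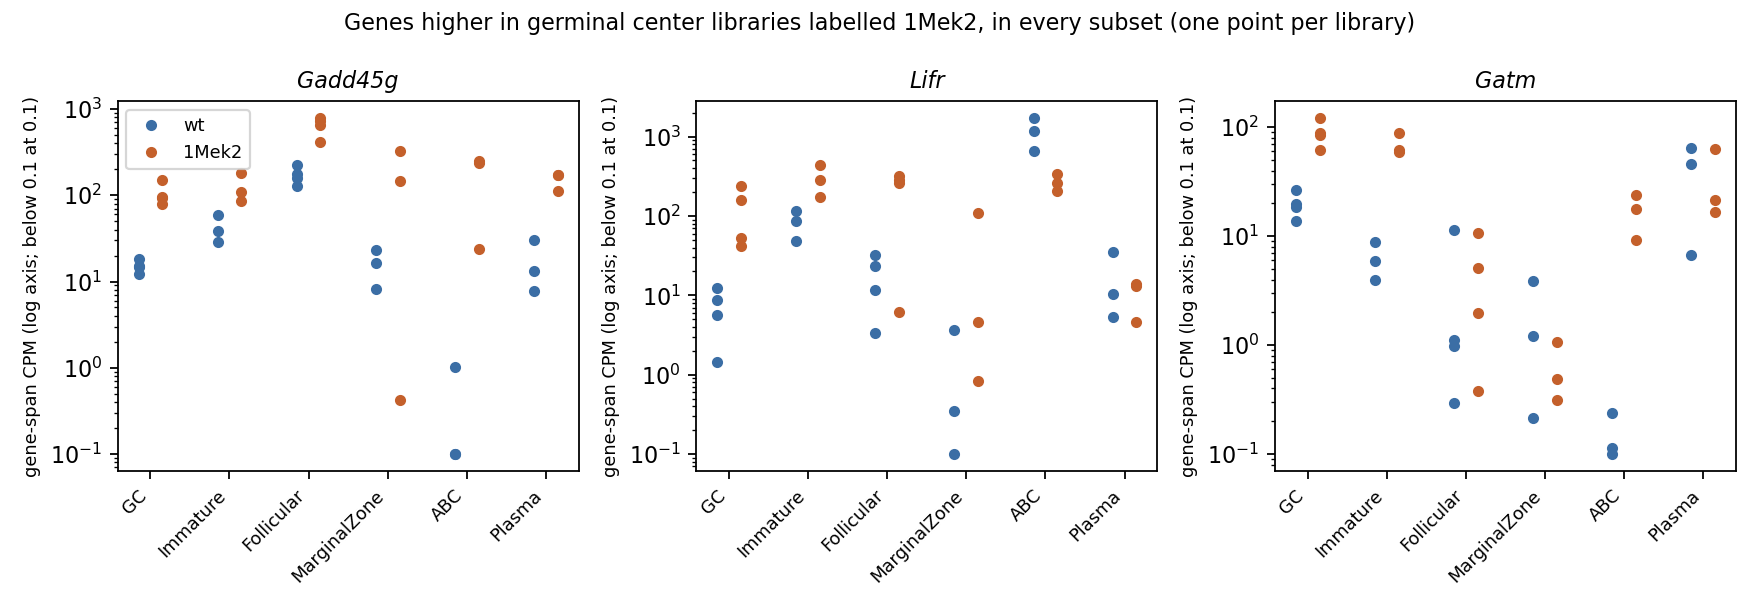
Gene-span CPM on a log axis of Gadd45g, Lifr and Gatm in the 6 subsets, 1 point per library, wt and 1Mek2 side by side. The Immature library of the animal with conflicting names is left out. Gadd45g is higher in 1Mek2 without overlap in GC, Immature, Follicular, ABC and Plasma, Lifr reverses its direction in ABC, and Gatm is separate in GC, Immature and ABC.

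Whether the genotype effect in GC differed from that in Immature cells was tested by an interaction contrast in limma voom with the animal as a block. No gene of 24136 passed (0.00%, 671 at an unadjusted p below 0.05), and edgeR without the block also gave 0 (837). For Gadd45g the GC effect exceeded the Immature effect by 1.27 ± 0.67 (SE) on the log2 scale and for Lifr by 2.30 ± 0.93, while for Gatm the difference was -1.24 ± 0.78 (limma adjusted p = 1.00 in each). In exon reads 1 gene of 17906 passed (0.00558%), Ighg3, with a GC effect of -0.75, an Immature effect of 5.45 and a difference of -6.19 ± 0.85 (adjusted p = 0.00581). None of the 6 genes that fell in GC passed in another subset in which it was tested. Kcnk12, Dlgap2 and Trpm5 were tested only in Immature cells, since the count filter removed them in the other subsets. Of all tested genes 0.933% passed in Immature cells, 0.0605% in Plasma cells, and none in ABC, Follicular or MarginalZone. Etl4 lay the other way in Plasma cells, at 5.88 to 6.14 CPM in wt and 28.8 to 48.1 in 1Mek2, without overlap (log2 fold change 2.78, adjusted p = 0.0577). In ABC it was lower without overlap, at 2.22 to 39.97 and 0.230 to 2.03 CPM (adjusted p = 0.239). In Immature cells Trpm5 had a log2 fold change of -1.37 and Kcnk12 of -0.93, both with overlapping groups.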

How the data were processed

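Poly-A RNA of 41 libraries from sorted splenic B cell subsets was prepared with an Illumina TruSeq RNA kit and sequenced, per the labels' protocols. The 8 GC libraries were grouped by title. Trim Galore 0.6.5, STAR 2.7.11a and featureCounts 2.0.3 with build GRCm39 are named in the submitters' processing notes, and further settings are not given in the sources used here. The authors deposited whole-number counts per gene, and per the file headers these were made over intervals from gene start to gene end. The authors also deposited TPM values with gene lengths. TPM multiplied by length gave whole exon reads after division by 1 constant per library. Rows without a gene name (0.0282% to 0.126% of exon reads) were left out. In the gene-span counts 1849 genes with at least 10 mean exon reads were at 0, immunoglobulin genes among them. Gene coordinates are those of the count table, and promoter windows come from RefSeq (GRCm38.p6).

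Gene-span counts were fitted with edgeR 4.0.16 (R 4.3.3, TMM scaling, filterByExpr, robust quasi-likelihood F test, two-sided, Benjamini-Hochberg threshold 0.05) on the 8 libraries. DESeq2 1.42.0, limma 3.58.1 (voom), RLE scaling, 2 other filters, exon reads, a term for reads on long neuronal genes, a replicate block and leaving out each library were alternatives. On simulated counts for 16681 genes, 57% of 100 genes changed by 2 on the log2 scale and 90% of 100 changed by 3 were recovered, with 3.29% false calls. The changed genes were drawn from those with a mean of at least 5 CPM. Counts came from a common mean profile, without the differences in exon share and long-gene reads seen among the libraries. Genes were named by rule: the targeted genes, every called gene, the 8 next genes per direction by p that did not overlap in both readouts at a mean of at least 5 CPM, the 4 members with the lowest p of each of 23 gene lists, and 6 genes that define GC cells. Heavy chain constant genes, and genes picked out after their values were seen, were added, and a few genes the rule named are not reported here. Sums and shares were compared by exact two-sided permutation tests. The interaction used limma voom with animal as a block. Both the interaction and the comparison within Immature cells left out the Immature library of the animal with conflicting names. The members and lists were chosen with earlier results of these data known.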

Additional observations from a re-analysis of the deposited data

Results flagged for a closer look

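Among 218 groups of 4 libraries checked, 8 held a library far from the other 3 in gene-span CPM, with a gap to its nearest neighbour that was above Dixon's 95% critical share of the group's range. Chance flags about 1 in 20 such groups. Of the 8, 5 were replicate 4 labelled 1Mek2. It was highest for Ddit4 (137 CPM, others 25.9 to 27.2), Ccr6 (422, others 16.8 to 77.0), Ccnd3 (814, others 341 to 417) and Gm5547 (34.5, others 22.0 to 23.0), and lowest for Fdps (32.7, others 151 to 154). In wt, Ccng1 was highest in replicate 3 (133 CPM, others 79.3 to 82.7), Ccnd2 in replicate 2 (143, others 79.9 to 84.9) and Exo1 in replicate 1 (53.3, others 28.5 to 30.6).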

How the results depend on the processing

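Against 3 genes higher and 6 lower with edgeR, RLE scaling gave 3 and 7 and a mean of at least 5 CPM gave 3 and 6. DESeq2 gave 61 and 81, no filter on low counts 24 and 18, and limma voom, the background term for long genes and exon reads 0 and 0 each. Leaving out 1 library gave 0 to 10 higher and 0 to 10 lower. Chosen after seeing the data were DESeq2 on exon reads (48 and 64), limma voom on exon reads (0 and 0), exon reads without 1 library (0 to 3 higher and 0 to 1 lower), and leaving out wt replicates 1 and 4, the 2 with the most reads on long neuronal genes (0 and 0 in either readout). With a replicate block, 1 gene was higher and 0 lower. The numbers do not pair the samples: the animals differ, the deviations of same-numbered libraries correlated at 0.274, -0.0889, 0.312 and 0.0350, and 2 of 4 numbers matched best with themselves. Exon reads with the background term were not run, because that term did not overlap between genotypes.

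The interaction gave 1 gene in exon reads and 0 to 1 without 1 library. Map2k1 changed sign at a mean of at least 5 CPM (-0.0378), with the background term (-0.00827), without wt replicates 1 and 4 (-0.223), and without single libraries (-0.194 to 0.223 over both readouts). Ifi44 was 0.624 with the background term and 0.878 without those 2 libraries. S1pr2 was -0.0589 in exon reads, -0.0555 in limma voom and -0.0671 in DESeq2 on them, -0.0102 with the background term, and -0.195 to 0.473 without single libraries. Fas was -0.211 with the background term, -0.139 without wt replicates 1 and 4 (-0.105 in exon reads), and -0.0558 to 0.628 without single libraries. Without single libraries the ranges were -0.127 to 1.79 for Ddit4, -0.0679 to 0.720 for Bax, -0.0687 to 2.06 for Ccr6 and -0.745 to 0.0524 for Mki67. Mean sums, 1Mek2 minus wt, changed sign in exon reads for B cell (-545 CPM), T cell (-7.66) and stromal genes (-8.26), and without TMM for B cell (-696) and stromal genes (-38.2). The causes were not tested. With 4 libraries a group and wide spread among them, changes of 2 on the log2 scale were recovered in simulation only in part.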
